A study of Homo sapiens with 12 samples.

Results

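This comparison set MIAPaCa2 cells that had adapted to an inhibitor of lactate dehydrogenase, and were growing in it, against the naive cells they came from. MIAPaCa2 is an established human pancreatic ductal adenocarcinoma (PDAC) cell line that relies on glycolysis, and sodium oxamate is a pyruvate analog that competes for the active site of LDHA. The naive group was 3 libraries of parental MIAPaCa2 cells treated with vehicle, and the adapted group was 3 libraries of oxamate-resistant MIAPaCa2 cells treated with oxamate, chosen by their sample labels. They are 6 of the 12 RNA-seq libraries of the study, whose other 6 were oxamate-treated parental and vehicle-treated resistant cells. Of the 26475 gene symbols measured, 14582 were expressed highly enough to be tested, and they are described here as a whole, by named genes and by 40 gene lists.

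The resistant cells were polyclonal survivors of parental cells kept in 10 mM oxamate over 4 weeks. How many separate selections stand behind the resistant libraries was not given in the sources used here. The oxamate dose and time before RNA harvest were not stated for these libraries in the methods. The groups differ in both line and drug, which this contrast alone cannot tell apart. The difference between the untreated lines and the effect of oxamate inside each line are therefore given beside the whole shift. Replicate numbers come from the sample labels, and nothing says that they were separate cultures, so p-values measure the spread between these libraries, which may be technical.

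Glycolytic cells turn pyruvate into lactate with LDHA to regenerate NAD+, and export the lactate through monocarboxylate transporters. Cells that lose this route commonly lean on mitochondrial respiration and NAD shuttles, and cells under metabolic or protein-folding stress switch on programs named for their regulators: HSF1 for cytosolic chaperones, XBP1 and ATF6 for endoplasmic reticulum (ER) chaperones, ATF4 for amino acid supply, HIF for low oxygen and NF-kappaB for survival and inflammation. Each of these programs has target genes that serve as its readout at the mRNA level.

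Levels are given as CPM, TMM-scaled counts relative to library size, which makes values of 1 gene comparable between libraries but not values of different genes, because CPM is not corrected for transcript length. Expected counts summed to between 66383814 and 114222169 in the naive and to between 46698729 and 53384114 in the adapted libraries, so each naive library was the deeper. A floor of 3 counts stood at 0.0283 to 0.0581 CPM, and like the intervals it covers counting error alone. Log2 levels of replicates correlated at 0.998 or higher across genes, and those of libraries of different groups at 0.956 to 0.961, where genes are not independent replicates. The summed level of 14 long noncoding RNAs that stay in the nucleus was 959 to 1010 CPM in naive and 1766 to 2106 CPM in adapted libraries, and its part in the other differences was not tested beyond the covariate fit given with the counts. Of 10 pancreatic ductal markers 2 were at or under the floor and 7 were tested, 2 being higher and 3 lower by the call rule given below. Among them the keratins were abundant (summed list 3492 to 3695 CPM in naive and 2008 to 2055 CPM in adapted libraries). Of 11 acinar markers 10, and of 10 endocrine markers 9, were at or under the floor, the summed endothelial list stayed under 1.2 CPM, the fibroblast list summed to 725 to 743 and 798 to 816 CPM, and the immune list, mostly the lysosomal gene CD68, to 184 to 192 and 78.1 to 80.1 CPM.

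Between naive and adapted cells, 4263 genes changed, or 29.2% of all tested, by the call rule used throughout: an adjusted p under 0.05 in edgeR's quasi-likelihood test and a fold change over 1.5. Of these, 3135 were upregulated in adapted cells (21.5% of all tested) and 1128 were downregulated (7.74%), and in 4209 the replicates of the groups did not overlap. Over all genes tested the groups did not overlap for 82.1%, and 80.3% had an adjusted p under 0.05 whatever the fold change, 39.4% being lower, so fold change decided most calls. Changes over 4-fold were found for 469 upregulated and 23 downregulated genes, and over all genes the log2 fold change had a median of 0.02. The direction depended on how abundant a gene was. Below a mean of 1 CPM over the 6 libraries, 1136 genes were upregulated and 121 downregulated of 2138, with a median log2 fold change of 0.77. Between 1 and 8 CPM the numbers were 1209 and 164 of 2799, with a median of 0.46. From 8 to 64 CPM, 711 genes rose and 441 fell of 6397, with a median of -0.02, and at 64 CPM or more 79 rose and 402 fell of 3248, with a median of -0.26.

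**Figure D1:**
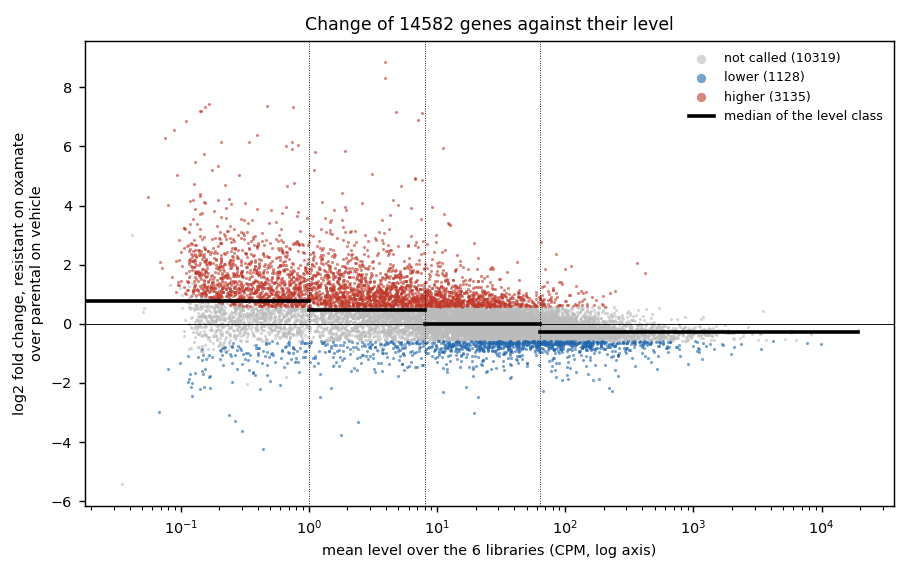
Log2 fold change of adapted (resistant, oxamate) over naive (parental, vehicle) cells against the mean CPM of each gene over the 6 libraries, on a log axis. Each point is a gene, red if called higher (3135), blue if called lower (1128), and black bars mark the median of each level class, which steps down from 0.77 under 1 CPM to -0.26 at 64 CPM and over.

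Long noncoding RNA genes and pseudogenes, of low abundance (median 1.16 and 1.61 CPM), held a larger share of upregulated members than protein-coding genes (24.5 CPM). Long noncoding RNA genes had 381 upregulated and 43 downregulated members of 839 (median 0.53), pseudogenes 171 and 21 of 370 (0.56), and protein-coding genes 2449 and 1041 of 13032 (-0.02). Genes with a ZNF symbol, most of which encode zinc-finger DNA-binding proteins, had 204 upregulated and 9 downregulated members of 448 (0.51). Of these 448, 240 averaged under 8 CPM. Mitochondrial ribosomal protein genes, of which 4 of 80 averaged under 8 CPM, had 2 upregulated and 5 downregulated members (-0.32). The balance of the directions moved with the scaling: library size in place of TMM shifted the median of all genes by 0.25 on the log2 scale and gave 4545 upregulated and 414 downregulated genes. Above 8 CPM, 790 of 9645 genes were upregulated and 843 downregulated, but the same genes fitted and scaled by themselves gave 1142 and 454. With a covariate for the nuclear-retained RNAs the counts were 2034 and 956, and with all libraries thinned to the smallest total they were 3028 and 1057. A gene near the filter can enter the test through the group in which it is higher. The counts below 1 CPM are therefore no measure of the share of weakly expressed genes that changed. The same limit holds for the long noncoding RNA genes and pseudogenes.

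At a mean of 8 CPM or more, 25 genes rose and 7 fell over 4-fold. FN1, which encodes the matrix glycoprotein fibronectin, had the largest increase at this abundance, with 0.377, 0.365 and 0.273 CPM in naive and 21.5, 22.1 and 21.8 CPM in adapted cells. This is a rise of 5.96 on the log2 scale (standard error 0.09, edgeR adjusted p = 7.28e-17), from barely detected to moderate abundance. Groups without overlap were a condition for picking the 8 genes described here. NRIP1, a corepressor of nuclear receptors, was measured at 1.12, 1.08 and 1.16 CPM in naive and 15.7, 18.4 and 17.3 CPM in adapted cells, a log2 change of 3.94 ± 0.08 (standard error). The next largest increases were in the ERK phosphatase gene DUSP6, described with its pathway, and in TPD52L1 (from 2.08 ± 0.110 to 22.2 ± 0.216 CPM), KIAA1549L (from 2.18 ± 0.0569 to 22.6 ± 0.786 CPM) and the imprinted, retrotransposon-derived PEG10 (from 2.26 ± 0.107 to 22.8 ± 0.594 CPM), as mean ± SD with n = 3 in each group. HIVEP2, a zinc-finger transcription factor, rose from 2.20 ± 0.104 to 17.4 ± 0.533 CPM, and the homeobox gene MEIS2 from 2.52 ± 0.133 to 17.2 ± 0.247 CPM. All 8 of these genes were high in vehicle-treated resistant cells too, at 19.2 CPM for FN1 and 14.7 CPM for NRIP1 for example, and the oxamate step inside the resistant line was at most 0.22 on the log2 scale in any of them.

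The largest decreases at the same abundance were ADM, ANKRD37 and the HSP70 genes HSPA1A and HSPA1B, each described with its pathway, and RGS5, SSTR5, RSRP1 and NR1D1. RGS5, a regulator that shuts off G protein signaling, had 341, 359 and 375 CPM in naive and 79.6, 82.0 and 78.7 CPM in adapted cells (log2 -2.16 ± 0.04, edgeR adjusted p = 2.47e-16). The somatostatin receptor gene SSTR5 had 19.6, 19.1 and 17.1 CPM and 3.54, 4.03 and 3.67 CPM (log2 -2.32 ± 0.07). NR1D1, which encodes the circadian repressor REV-ERB alpha, fell from 149.9 ± 1.56 to 40.4 ± 1.26 CPM, and RSRP1 from 35.1 ± 0.236 to 6.35 ± 0.837 CPM. In each of the 8 genes every adapted library lay below every naive library, which the rule that picked them required. The log2 difference between the untreated lines was -2.35 for RGS5, -1.92 for SSTR5, -1.50 for NR1D1 and -2.15 for RSRP1, and the oxamate step in resistant cells was 0.18, -0.40, -0.39 and -0.31.

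Exactly 6 genes went from no more than 3 counts in every naive library to more than 3 in every adapted library with a mean of at least 1 CPM, and no gene went the opposite way. ITGA1, which encodes the alpha subunit of a collagen-binding integrin, had 8.15, 8.25 and 7.22 CPM in adapted cells against 4 counts in all naive libraries together, a ratio of 523 with a 95% exact counting interval of 204 to 1923. IGFBP5, an insulin-like growth factor binding protein, had 7.81, 8.17 and 7.30 CPM in adapted cells against 6 counts, a ratio of 344 (158 to 939). The complement component C7 (ratio 72.6, 32.9 to 200), the ectonucleotidase ENPP3 (202, 55.4 to 1680), the serpin SERPINB7 (64.5, 29.2 to 177) and the ephrin receptor EPHA3 (70.5, 29.7 to 219) reached 1.32 to 1.63 CPM. ITGA1 and IGFBP5 thus stood well above the floor, whereas the other 4 rested on 216 to 267 counts over the adapted libraries. The rule capped the naive counts, so large ratios were built in. The intervals cover counting error in the pooled counts and make no allowance for that choice.

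**Figure D2:**
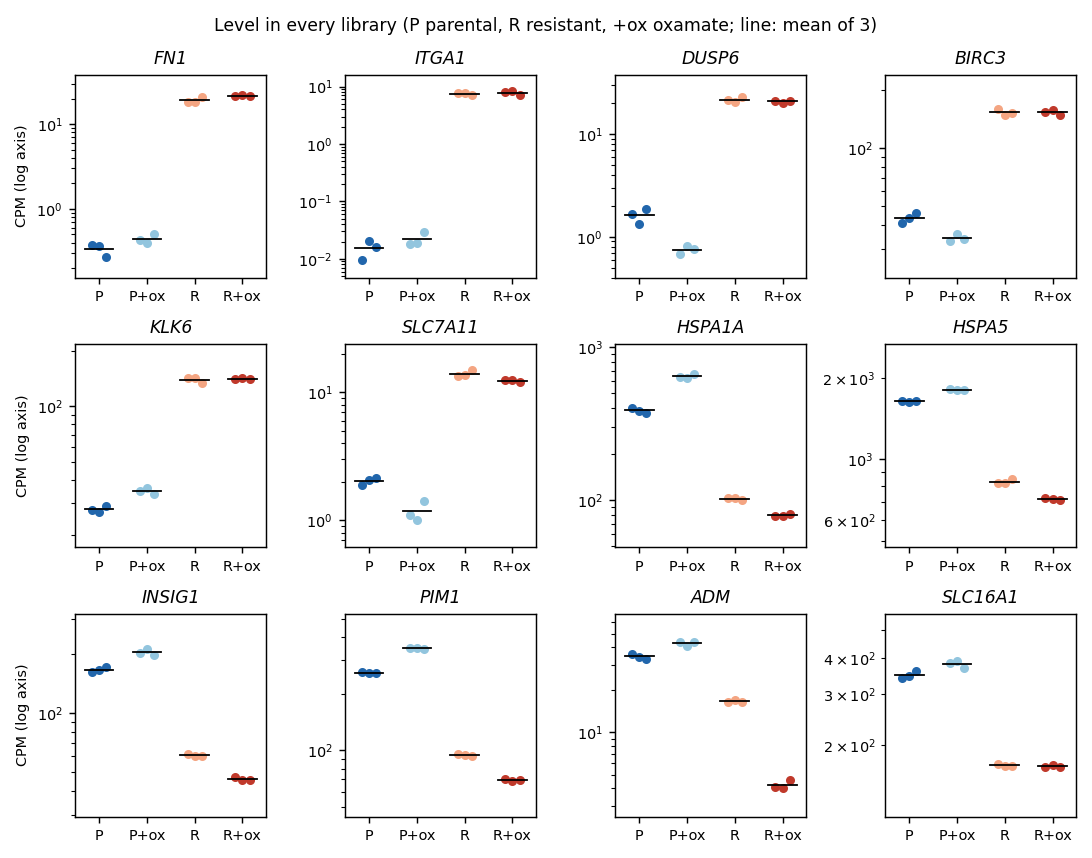
CPM of 12 genes in all 12 libraries, on log axes, for parental (P) and resistant (R) cells on vehicle or oxamate (+ox). Points are libraries and lines are group means. Both resistant groups sit apart from both parental groups in each panel, and in ADM the resistant libraries on oxamate (4.05 to 4.56 CPM) lie below those on vehicle.

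LDHA, the target of oxamate, was expressed in every library. Its level was 1075, 1059 and 1086 CPM in naive and 1223, 1217 and 1198 CPM in adapted cells, a log2 change of 0.18 ± 0.03 (standard error, edgeR adjusted p = 8.16e-05) that is under the 1.5-fold limit. The groups did not overlap, as in 82.1% of all genes. The log2 difference was -0.16 between the untreated lines, 0.34 with oxamate in resistant cells and 0.62 with oxamate in parental cells. LDHB, which encodes the other main subunit, was at or under the floor in all libraries. Among 28 genes that move or convert lactate and pyruvate, 8 were upregulated and 3 downregulated, against 21.5% and 7.74% of all genes. The median of these 28 genes was -0.12 with TMM but 0.13 with library size alone. SLC16A1, which encodes the lactate transporter MCT1, fell by more than any other of them: it had 342, 348 and 361 CPM in naive and 167, 169 and 167 CPM in adapted cells, a log2 fold change of -1.06 ± 0.03. Its step lay between the untreated lines (-1.05), with -0.01 under oxamate in resistant cells. Both subunits of the mitochondrial pyruvate carrier were lower, MPC1 from 8.30 to 4.44 CPM (log2 -0.91 ± 0.10) and MPC2 from 73.4 ± 1.69 to 48.8 ± 1.83 CPM (log2 -0.59 ± 0.04), the latter close to the fold limit. Pyruvate dehydrogenase kinases, which shut pyruvate out of the TCA cycle, were higher: PDK1 from 17.7 to 28.3 CPM (log2 0.68 ± 0.04), PDK3 from 25.6 ± 0.391 to 40.9 ± 0.750 CPM (log2 0.67 ± 0.03) and PDK4 from 5.12 to 9.77 CPM (log2 0.95 ± 0.08), and so was the opposing phosphatase gene PDP1, from 12.8 to 21.3 CPM (log2 0.75 ± 0.07). EMB, which encodes embigin, an accessory protein of the lactate transporters, rose from 0.156 ± 0.0368 to 3.47 ± 0.445 CPM, from close to the floor.

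Glucose uptake and glycolysis genes were called in both directions. Of 29 tested, 4 were upregulated and 6 downregulated, against 21.5% and 7.74% of all genes. The median was -0.25, and 0.00 with library size alone. The abundant glucose transporter genes fell: SLC2A3 had 343, 349 and 349 CPM in naive and 167, 163 and 165 CPM in adapted cells, a log2 fold change of -1.07 ± 0.02, and SLC2A1 went from 169.6 to 87.4 CPM (log2 -0.96 ± 0.02). The hexokinase gene HK2 was lower (from 237 to 141 CPM, log2 -0.75 ± 0.02), as were ALDOC (from 79.1 to 44.5 CPM) and HKDC1 (from 16.5 to 8.87 CPM). The bifunctional enzymes that set the level of fructose 2,6-bisphosphate went opposite ways, PFKFB3 falling from 156 ± 3.04 to 74.9 ± 1.13 CPM and PFKFB4 rising from 26.3 ± 1.19 to 45.5 ± 0.365 CPM. SLC2A6, a minor transporter gene, rose from 9.17 ± 0.349 to 16.2 ± 0.734 CPM, and the muscle-type genes ENO3 and PGAM2 rose from under 1 CPM. The list's median was -0.40 between the untreated lines, 0.12 under oxamate in resistant cells and 0.44 under oxamate in parental cells, which share the naive or adapted libraries with the whole contrast.

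The pentose phosphate pathway, which makes NADPH and ribose, had 3 downregulated and 0 upregulated of 13 genes (12 lower at an adjusted p under 0.05 in edgeR, against 39.4% of all genes). RPIA, ribose-5-phosphate isomerase, fell from 54.8 ± 0.735 to 31.4 ± 0.374 CPM and PGD, the second NADPH-producing enzyme of the pathway, from 239.7 ± 4.07 to 153 ± 0.721 CPM, and with library size alone no gene of the pathway was called (median -0.09). In the cytosolic NAD shuttles 1 of 12 genes rose and 1 fell, against 21.5% and 7.74% of all genes. SLC25A13, the aspartate-glutamate carrier of the malate-aspartate shuttle, rose from 13.0 ± 0.165 to 22 ± 0.694 CPM. GPD1, the cytosolic glycerol-3-phosphate dehydrogenase, fell from 8.07 ± 0.401 to 4.20 ± 0.342 CPM. Of the 21 TCA cycle genes 19 were lower by that test and 1 was higher, with a median of -0.38 (-0.13 with library size alone). Past the fold limit were 2, SDHB (from 116 ± 0.603 to 75.9 ± 0.897 CPM) and IDH2 (from 133 ± 4.91 to 86.8 ± 1.70 CPM), both downward, against 7.74% lower over all genes. Both lost their calls with library size alone (log2 -0.37 and -0.37), with upper-quartile factors (-0.52 and -0.52) and in the fit of genes at 8 CPM or more (-0.49 and -0.50), and IDH2 also with the nuclear RNA covariate (-0.52). Nuclear-encoded subunits of the respiratory chain moved together by a small amount: 74 of 75 were lower at an adjusted p under 0.05, against 39.4% of all genes, and none was higher. Past 1.5-fold were 12 of the 75, against 7.74% lower over all genes, and the list median was -0.42. ATP5G1, a gene for the c-ring subunit of ATP synthase, changed most and had 57.9, 57.6 and 55.0 CPM in naive and 29.4, 29.6 and 29.9 CPM in adapted cells (log2 -0.94 ± 0.03). Cytochrome c, encoded by CYCS, fell from 129.7 ± 1.62 to 83.2 ± 1.43 CPM. With library size alone the median stayed lower at -0.17 and 1 subunit kept its call, so the size of this shift rests on the scaling, and the same abundance class had a median of -0.26 over all its genes. Fatty acid oxidation, a fuel route of mitochondria, had 4 upregulated and 1 downregulated of 27 genes, against 21.5% and 7.74% of all genes. Its median was -0.02, and 0.23 with library size alone. CPT2, which releases fatty acyl groups inside mitochondria, rose from 22.4 ± 0.482 to 38.1 ± 0.971 CPM, and the regulator PPARA from 21.0 ± 0.545 to 32.9 ± 0.530 CPM, whereas the acyl-CoA synthetase gene ACSL4 fell from 81.8 ± 4.06 to 51.0 ± 1.14 CPM. The ACSL4 call was lost with library size alone (log2 -0.43) and upper-quartile factors (-0.58).

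Cytosolic chaperones were mostly lower. Of 36 heat shock response genes, 19 fell and 1 rose, against 7.74% lower and 21.5% higher over all genes tested, and the median was -0.60 with TMM and -0.35 with library size alone, under which 9 remained called lower. Of the 36, 23 averaged 64 CPM or more, a class in which 12.4% of all genes fell and 2.43% rose (median -0.26). HSPA1A, which encodes the stress-inducible HSP70, had 404, 382 and 374 CPM in naive and 78.5, 78.6 and 81.6 CPM in adapted cells, a change of -2.28 on the log2 scale (standard error 0.03, edgeR adjusted p = 6.45e-17). HSPA1B, a near-identical neighboring copy, had 111, 113 and 107 CPM and 22.5, 22.4 and 23.3 CPM, and reads that match both genes were divided between them by RSEM, so the split is uncertain while the sum is not. In both genes the groups did not overlap, which the rule that picked them required. The HSP40 gene DNAJB1 fell from 766 to 265 CPM (log2 -1.53 ± 0.02) and HSPA6, a strictly inducible HSP70, from 3.34 to 0.245 CPM (log2 -3.76 ± 0.14). The more abundant members HSPA8, HSP90AA1 and HSPB1 fell less. HSPA8 went from 1873 to 1028 CPM (log2 -0.87 ± 0.03) and HSP90AA1 from 4328 ± 75.5 to 2394 ± 43.6 CPM (log2 -0.85 ± 0.03). HSPB1, which encodes HSP27, went from 1563 to 930.3 CPM (log2 -0.75 ± 0.02). HSPA1L, which rose, stayed under 1 CPM (0.275 ± 0.0151 and 0.594 ± 0.123 CPM). HSF1 itself was at 166 and 136 CPM in naive and adapted cells (log2 -0.28 ± 0.02), inside the fold limit. In parental cells oxamate went with a higher HSPA1A level (648 CPM, log2 0.74 ± 0.03), while in resistant cells it went with a lower one (log2 -0.36 ± 0.03), on top of the difference between the untreated lines (-1.92 ± 0.03).

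The promoters of HSPA1A and HSPA1B are shown because they carry the heat shock element through which HSF1 acts on its targets. Each run covers 250 bases before to 50 after the RefSeq start site (GRCh38.p14), 5′ to 3′ on the gene's strand, with letters matching the core GAANNTTC on either strand in capitals: HSPA1A at chr6:31815293-31815592 and HSPA1B at chr6:31827488-31827787, both on the plus strand.
HSPA1A: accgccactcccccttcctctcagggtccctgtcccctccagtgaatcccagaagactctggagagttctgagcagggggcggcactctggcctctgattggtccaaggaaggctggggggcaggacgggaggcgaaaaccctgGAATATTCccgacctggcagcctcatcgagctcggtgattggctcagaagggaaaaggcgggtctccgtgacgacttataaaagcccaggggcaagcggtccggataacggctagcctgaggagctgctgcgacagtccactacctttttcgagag
HSPA1B: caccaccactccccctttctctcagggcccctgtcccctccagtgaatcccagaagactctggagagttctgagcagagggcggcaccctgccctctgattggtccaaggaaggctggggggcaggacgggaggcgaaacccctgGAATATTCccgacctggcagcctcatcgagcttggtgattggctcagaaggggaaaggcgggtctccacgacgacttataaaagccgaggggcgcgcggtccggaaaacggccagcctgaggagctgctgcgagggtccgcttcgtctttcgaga
The match began at position -106 from the start site in HSPA1A and at -105 in HSPA1B. The core was in 10 of the 33 list promoters on hand (30.3%), 8 of them belonging to downregulated genes, and in 6.87% of 27305 RefSeq promoters of the same length. Letters alone do not show that a factor binds.

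ER chaperones and XBP1 targets were lower as well. Of 35 genes, 13 fell and 1 rose, against 7.74% lower and 21.5% higher over all genes, with a median of -0.46 (-0.21 with library size alone, under which 4 remained called lower). Of the 35, 17 averaged 64 CPM or more, where 12.4% of all genes fell and 2.43% rose. HSPA5, which encodes BiP, the main chaperone of the ER lumen, had 1647, 1625 and 1642 CPM in naive and 721, 716 and 712 CPM in adapted cells, a log2 fold change of -1.19 ± 0.02 (edgeR adjusted p = 2.56e-16). The adapted replicates lay close together and far below the naive ones. Its cochaperone DNAJB9 fell from 49.5 ± 1.11 to 16.8 ± 0.387 CPM (log2 -1.56 ± 0.03), SDF2L1 from 31.8 to 12.4 CPM (log2 -1.36 ± 0.06), HSP90B1, which encodes GRP94, from 1464 to 933 CPM (log2 -0.65 ± 0.02) and the calcium-binding lectin chaperone CALR from 2069 to 1293 CPM (log2 -0.68 ± 0.02). EDEM1, which directs misfolded glycoproteins to degradation, rose from 21.4 ± 0.819 to 40.4 ± 0.444 CPM. XBP1 was at 127 and 96.4 CPM in naive and adapted cells (log2 -0.39 ± 0.03), inside the fold limit. The HSPA5 promoter, at chr9:125241294-125241593 of GRCh38.p14 on the minus strand, is shown for its ER stress element, CCAAT and CCACG separated by 9 bases (in capitals), a motif chosen after the values were seen.
HSPA5: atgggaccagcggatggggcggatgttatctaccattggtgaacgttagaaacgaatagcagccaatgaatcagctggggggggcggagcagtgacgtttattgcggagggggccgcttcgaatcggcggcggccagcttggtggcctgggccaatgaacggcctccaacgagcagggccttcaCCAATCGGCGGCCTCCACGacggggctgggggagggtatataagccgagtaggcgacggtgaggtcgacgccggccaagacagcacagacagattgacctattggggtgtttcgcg
The match began at -66. The element was in 7 of 33 list promoters (21.2%), those of 3 downregulated genes and of 4 that were not called, and in 0.081% of all promoters.

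Sterol and fatty acid synthesis genes, which SREBP factors control, had 10 downregulated and 1 upregulated of 32 members, against 7.74% and 21.5% of all genes. Their median was -0.38. With library size alone it was -0.13, and 4 were called lower and 2 higher. Of the 32, 19 averaged 64 CPM or more, where 12.4% of all genes fell and 2.43% rose. INSIG1, a feedback protein that holds SREBP in the ER and is itself an SREBP target, had 160.5, 165 and 171 CPM in naive and 46.9, 45.5 and 45.5 CPM in adapted cells, a log2 fold change of -1.85 ± 0.03 (edgeR adjusted p = 2.26e-16). MSMO1 (from 53.3 to 20.9 CPM), IDI1 (from 39.3 to 19.0 CPM), EBP (from 95.6 to 47.8 CPM) and FDFT1, squalene synthase (from 192 ± 0.921 to 115 ± 1.29 CPM), of the cholesterol route all fell. In contrast, ELOVL6, a fatty acid elongase gene, rose from 2.77 ± 0.133 to 5.38 ± 0.576 CPM. The list included SREBF2, which was not called (log2 -0.20 ± 0.02). The sterol element TCACNCCAC was in 1 of 25 list promoters (4.0%), and in 1.15% of all, and the INSIG1 window held none.

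NF-kappaB subunits and feedback targets were the opposite case. Of 25 genes tested, 15 rose and none fell, against 21.5% higher over all genes, with a median of 0.78 that was 1.03 with library size alone. BIRC3, which encodes the ubiquitin ligase cIAP2, had 40.7, 43.3 and 45.9 CPM in naive and 155, 159 and 149.9 CPM in adapted cells, a log2 fold change of 1.84 ± 0.04 (edgeR adjusted p = 3.68e-15). TNFAIP3, which encodes A20, a deubiquitinase that restrains the pathway, had 11.7, 12.2 and 12.0 CPM and 37.5, 35.5 and 37.4 CPM (log2 1.62 ± 0.04). No replicate of either gene overlapped between the groups, as in 82.1% of all genes. The subunit genes RELB (from 20.9 to 42.1 CPM), REL (from 14.1 to 24.2 CPM) and NFKB2 (from 114 to 181 CPM) rose, as did the target TNFAIP2 (from 147 ± 2.90 to 304 ± 6.57 CPM), the adaptor gene TRAF1 (from 3.19 to 13.0 CPM), TNFRSF9 (from 4.20 to 17.6 CPM) and the chemokine genes CXCL2 (from 5.29 to 16.8 CPM), CXCL3 (from 3.45 to 9.18 CPM) and CXCL5 (from 28.8 to 56.0 CPM). The inhibitor gene NFKBIA was at 124 ± 1.35 and 164 ± 2.43 CPM in naive and adapted cells (log2 0.40 ± 0.02), inside the fold limit, whereas NFKBIE (from 8.63 to 13.2 CPM) passed it. The step lay between the untreated lines, where the list median was 0.78. It was -0.03 under oxamate in resistant cells and 0.05 in parental cells.

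The promoters of both leading genes are shown with the letters of the kappaB consensus on either strand in capitals, a motif chosen after the values were seen. BIRC3 lies at chr11:102317234-102317533 and TNFAIP3 at chr6:137867009-137867308 of GRCh38.p14, on the plus strand.
BIRC3: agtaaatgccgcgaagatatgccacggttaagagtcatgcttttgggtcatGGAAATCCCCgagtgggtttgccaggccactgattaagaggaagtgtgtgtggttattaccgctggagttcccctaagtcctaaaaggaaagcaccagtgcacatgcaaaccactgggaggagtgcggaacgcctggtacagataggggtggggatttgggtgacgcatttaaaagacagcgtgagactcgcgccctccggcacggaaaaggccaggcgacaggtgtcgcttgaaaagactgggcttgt
TNFAIP3: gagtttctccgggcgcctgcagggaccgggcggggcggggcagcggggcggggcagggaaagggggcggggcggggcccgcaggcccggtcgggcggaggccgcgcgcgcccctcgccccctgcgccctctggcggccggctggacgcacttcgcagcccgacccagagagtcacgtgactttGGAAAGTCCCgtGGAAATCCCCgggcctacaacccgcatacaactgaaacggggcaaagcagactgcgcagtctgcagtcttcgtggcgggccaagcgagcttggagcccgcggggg
The match began at -199 in BIRC3, and in TNFAIP3 there were 2, at -67 and -55, close to the start site. The consensus was in 11 of 22 list promoters (50%), 8 of them of upregulated genes, and in 3.01% of all promoters. Overlap with other motifs was not searched.

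Kallikrein-related peptidases are secreted serine proteases whose genes lie side by side on chromosome 19. Of 6 members tested 4 were upregulated and 1 downregulated, against 21.5% and 7.74% of all genes, while 6 of the 15 listed were at or under the floor. KLK6 had 27.5, 26.8 and 28.7 CPM in naive and 141, 142 and 142 CPM in adapted cells, a log2 fold change of 2.36 ± 0.03 (edgeR adjusted p = 6.45e-17). KLK5 (from 1.83 ± 0.0586 to 6.41 ± 0.472 CPM), KLK7 (from 3.47 to 12.4 CPM) and KLK10 (from 0.930 to 3.07 CPM) rose from low levels. KLK13 fell from 0.221 ± 0.0869 to 0.0929 ± 0.0241 CPM, near the floor, and its call was lost with library size alone, with DESeq2, with the covariate and without naive replicate 3 or adapted replicate 3.

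In the RAS pathway, which carries growth factor signals to ERK, 7 of 45 genes rose and 7 fell, against 21.5% and 7.74% of all genes. DUSP6, the phosphatase that switches off ERK and is induced by it, had 1.67, 1.33 and 1.85 CPM in naive and 21.3, 20.1 and 21.3 CPM in adapted cells, a log2 fold change of 3.71 ± 0.08 (edgeR adjusted p = 1.97e-15). The groups were 13.1-fold apart and did not overlap, the latter being required by the rule that picked the gene. RASA1, a RAS GTPase-activating protein that turns RAS off, rose from 39.4 ± 0.846 to 105 ± 1.51 CPM, RASAL2, of the same function, from 7.59 to 27.5 CPM, and the negative regulators SPRED1 (from 13.6 to 22.7 CPM) and SPRED3 (from 7.29 to 14.1 CPM) and the phosphatase gene DUSP4 (from 1.31 to 4.28 CPM) rose as well. DUSP7 fell from 142 ± 1.81 to 64.7 ± 0.516 CPM, the EGFR ligand gene HBEGF from 26.6 ± 0.481 to 11.2 ± 0.657 CPM, and ETV4, an ERK-responsive transcription factor gene, from 75.9 to 40.8 CPM. Oxamate went with a lower DUSP6 level in parental cells (log2 -1.08 ± 0.14) and with -0.06 ± 0.06 in resistant cells.

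PIM kinases, serine-threonine kinases that act beside MYC, were all lower: PIM1 had 261, 257 and 256 CPM in naive and 70.7, 68.7 and 69.5 CPM in adapted cells (log2 -1.89 ± 0.02, edgeR adjusted p = 2.37e-17), PIM3 went from 349.6 to 168 CPM and PIM2 from 122 to 70.9 CPM. The replicates of the groups did not overlap in any of them, as in 82.1% of all genes. MXD1, which encodes a MYC antagonist, fell from 21.6 to 9.02 CPM, and TXNIP and ARRDC3, related arrestin-family genes that respond to glucose, went opposite ways, TXNIP falling from 1387 ± 36.8 to 733 ± 1.70 CPM and ARRDC3 rising from 32.3 ± 1.65 to 51.6 ± 1.03 CPM. The ARRDC3 call was lost with the nuclear RNA covariate (log2 0.57). MYC was at 263 and 204 CPM in naive and adapted cells (log2 -0.37 ± 0.02) and was not called.

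Hypoxia genes outside glycolysis were called in both directions. Of 30 HIF targets, 5 rose and 6 fell, against 21.5% and 7.74% of all genes. The median of -0.18 turned to 0.07 with library size alone. ADM, which encodes the vasodilator adrenomedullin, had 36.0, 34.4 and 33.2 CPM in naive and 4.08, 4.05 and 4.56 CPM in adapted cells, a change of -3.03 on the log2 scale (standard error 0.05, edgeR adjusted p = 2.30e-16) and the largest decrease of any gene averaging 8 CPM or more. Its decrease came in both steps, with -1.06 ± 0.04 between the untreated lines and -1.96 ± 0.06 under oxamate in resistant cells, where the mean went from 16.5 CPM on vehicle to 4.23 CPM. ANKRD37, another hypoxia-induced gene, had 27.1, 28 and 26.3 CPM and 6.53, 6.19 and 5.92 CPM (log2 -2.13 ± 0.05), also in both steps (-0.72 and -1.41). Oxamate in parental cells went with higher levels of both, by 0.31 and 0.69. ANGPTL4, a secreted inhibitor of lipoprotein lipase, fell from 182 ± 6.34 to 58.7 ± 0.318 CPM. STC1, stanniocalcin, rose from 46.8 ± 1.2 to 70.5 ± 0.740 CPM, just past the fold limit, and PPFIA4 from 7.83 to 18.0 CPM, while PLOD2, EGLN3 and RORA rose at levels under 1 CPM. HIF1A was at 218 and 178 CPM in naive and adapted cells (log2 -0.29 ± 0.02) and was not called.
ADM: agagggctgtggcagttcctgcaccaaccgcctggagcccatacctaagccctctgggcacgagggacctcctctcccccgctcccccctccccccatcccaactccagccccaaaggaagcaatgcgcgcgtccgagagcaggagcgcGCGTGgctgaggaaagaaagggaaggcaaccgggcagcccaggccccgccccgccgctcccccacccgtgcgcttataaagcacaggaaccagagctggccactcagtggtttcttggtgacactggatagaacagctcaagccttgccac
The run is the ADM promoter at chr11:10304823-10305122 of GRCh38.p14 on the plus strand, with the hypoxia core (ACGTG or GCGTG, either strand) in capitals, at -101. The core was in 19 of 23 list promoters (82.6%) and in 48.4% of all promoters, so a match is common whatever the gene.

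The integrated stress response, through which ATF4 raises amino acid supply, split. Of 35 genes, 3 rose and 8 fell, against 21.5% and 7.74% of all genes. The median was -0.15, and 0.10 with library size alone. SLC7A11, the cystine importer whose product feeds glutathione synthesis, had 1.89, 2.07 and 2.12 CPM in naive and 12.4, 12.3 and 12.0 CPM in adapted cells, a log2 fold change of 2.60 ± 0.08 (edgeR adjusted p = 1.29e-13). CHAC1, which encodes a glutathione-degrading enzyme, had 2.62, 2.41 and 2.64 CPM and 13.1, 13.3 and 13.7 CPM (log2 2.39 ± 0.06). Both stood several-fold higher without overlap, the latter as in 82.1% of all genes. Both were high in resistant cells on vehicle (13.9 and 11.7 CPM). In contrast, SLC3A2, the heavy chain that carries SLC7A11 to the membrane, fell from 178 ± 5.61 to 118 ± 2.83 CPM, just past the fold limit. Its call was lost with library size alone (log2 -0.34), upper-quartile factors (-0.49) and the 8 CPM filter (-0.47), among others. DDIT3, which encodes CHOP, fell from 50.3 to 24.1 CPM. PPP1R15A, which encodes the phosphatase subunit GADD34, fell from 217 ± 7.13 to 119.5 ± 0.362 CPM, and the stress cytokine GDF15 from 13.4 to 6.00 CPM. ATF4 was at 207 and 257 CPM in naive and adapted cells (log2 0.31 ± 0.03), short of the fold limit. The list median was 0.12 between the untreated lines and -0.27 under oxamate in resistant cells. Among 25 amino acid transporters 6 rose and 2 fell, beside the same shares. SLC38A7, a lysosomal glutamine transporter, rose from 15.1 ± 0.0981 to 23.6 ± 0.410 CPM. SLC7A8, the only decrease besides SLC3A2, was near the floor (0.231 ± 0.0555 and 0.0665 ± 0.0151 CPM) and lost its call with the nuclear RNA covariate (log2 -1.04). NRF2 targets, the antioxidant program, had 1 upregulated member, SLC7A11 itself, and 4 downregulated of 26, beside 21.5% and 7.74% of all genes. Their median was -0.25. With library size alone it was -0.0016, and 4 members were called higher and 2 lower. OSGIN1 fell from 60.6 ± 1.57 to 24.5 ± 0.718 CPM, the aldo-keto reductase AKR1C1 from 145 ± 2.71 to 68.5 ± 1.49 CPM and FTL, the ferritin light chain, from 5009 ± 70.9 to 3315 ± 14.2 CPM. The FTL call was lost with library size alone (log2 -0.35), upper-quartile factors (-0.50), the nuclear RNA covariate (-0.47) and thinned counts (-0.58), among others. Metallothioneins, metal-binding proteins whose near-identical genes share reads, had 1 upregulated and 2 downregulated of 10, beside the same shares. MT1M rose from 1.96 ± 0.247 to 4.92 ± 0.236 CPM and MT1A fell from 26.0 ± 1.79 to 9.59 ± 0.419 CPM, while MT1G was under 1 CPM (0.36 ± 0.0256 and 0.172 ± 0.0709 CPM).

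DNA replication genes were lower by a modest amount. Of 54, 15 fell and none rose, against 7.74% lower and 21.5% higher over all genes, with a median of -0.37. With library size alone 2 remained called and the median was -0.12. Of the 54, 18 averaged 64 CPM or more, where 12.4% of all genes fell and 2.43% rose. From 8 to 64 CPM 6.89% of all genes fell and 11.1% rose. RRM2, the regulated subunit of ribonucleotide reductase, had 309.8, 310.2 and 313 CPM in naive and 140.1, 145 and 141 CPM in adapted cells (log2 -1.13 ± 0.02, edgeR adjusted p = 2.49e-15). The helicase genes MCM2 (from 185 to 109.8 CPM), MCM4 (from 171 ± 0.735 to 101 ± 0.419 CPM), MCM5 (from 67.3 to 38.4 CPM), MCM6 (from 119 to 74.6 CPM) and MCM7 (from 410.4 to 222 CPM) fell together with the licensing factor CDT1 (from 199 to 112 CPM). The E2F motif, TTTCCCGC or TTTGGCGC on either strand, was in 18 of 46 list promoters (39.1%), 6 of them of downregulated genes, and in 2.31% of all promoters. Of 57 mitosis and spindle genes 15 fell and 1 rose, beside 7.74% and 21.5% over all genes (median -0.35). With library size alone 3 were called lower and 4 higher, and the median was -0.10. Of the 57, 36 averaged 64 CPM or more. UBE2C, the ubiquitin-conjugating enzyme of the anaphase-promoting complex, fell from 243 ± 3.16 to 126 ± 0.0635 CPM, AURKB, a spindle checkpoint kinase, from 96.1 ± 0.444 to 54.4 ± 0.331 CPM, and CDK1, the mitotic kinase, from 114 to 60.5 CPM, and the kinetochore motor gene CENPE rose from 33.7 ± 2.82 to 52.8 ± 1.01 CPM, a call lost with the nuclear RNA covariate (log2 0.53). Of 26 genes of the G1 phase 5 fell and 1 rose, beside 7.74% and 21.5% over all genes. The median of -0.18 turned to 0.07 with library size alone. The inhibitor genes of p57, CDKN1C (from 115 ± 4.93 to 43.0 ± 1.53 CPM), and of p19, CDKN2D (from 58.3 ± 3.13 to 25.3 ± 1.2 CPM), fell most, and CDK2 (from 63.1 to 39.2 CPM), E2F1 (from 36.0 to 22.7 CPM) and CCND3 (from 42.6 to 25.8 CPM) fell as well. CCND2 rose from 0.615 ± 0.136 to 1.21 ± 0.129 CPM, close to 1 CPM, and lost its call with the covariate (log2 0.83).

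Among 28 p53 targets, 3 rose and 6 fell, against 21.5% and 7.74% of all genes. PHLDA3, which encodes a repressor of AKT, rose from 8.86 ± 0.331 to 22.7 ± 0.834 CPM, and the death receptor gene FAS from 7.82 ± 0.221 to 12.7 ± 0.477 CPM. PLK3, a stress kinase gene, fell from 54.9 ± 0.867 to 21.1 ± 0.628 CPM, and SERTAD1 from 40.7 ± 2.81 to 20.5 ± 0.163 CPM. CDKN1A was at 6.95 and 5.68 CPM in naive and adapted cells (log2 -0.29 ± 0.06) and was not called. The BCL2 family sets the threshold of mitochondrial apoptosis. Of its 20 genes 1 rose and 3 fell, beside the same shares and on either side of the balance. BCL2L1, which encodes the survival protein BCL-XL, fell from 185 ± 3.54 to 104 ± 1.57 CPM, and the death effector BAK1 from 124 ± 4.29 to 64.5 ± 2.37 CPM and the BH3-only gene BBC3, which encodes PUMA, from 86.6 to 53.4 CPM fell too. The BH3-only gene BMF rose from 8.28 ± 0.434 to 12.6 ± 0.537 CPM, near the fold limit, and lost its call with the covariate, in thinned counts and without naive replicate 2 (log2 0.53 to 0.57).

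Immediate early genes, which serum and growth factors induce within minutes, had 5 upregulated and 10 downregulated of 28, against 21.5% and 7.74% of all genes. CTGF, a YAP and TGF-beta target, had 0.736, 0.832 and 0.611 CPM in naive and 5.88, 6.23 and 6.86 CPM in adapted cells (log2 3.10 ± 0.13), while its close relative CYR61 fell from 111 to 47.9 CPM (log2 -1.21 ± 0.04). FOSB rose from 10.7 to 33.3 CPM and EGR4 from 0.870 ± 0.0293 to 2.54 ± 0.247 CPM, and the AP-1 gene FOSL1 (from 141 ± 2.99 to 78.4 ± 0.755 CPM) and the KLF genes KLF6 (from 534 ± 12.0 to 267 ± 5.62 CPM) and KLF2 (from 215 to 99.1 CPM) fell. The list median was -0.15 with TMM and 0.10 with library size alone.

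Epithelial and mesenchymal genes each moved in both directions. Of 27 epithelial genes 8 rose and 3 fell, against 21.5% and 7.74% of all genes. ELF3, an epithelial transcription factor gene, had 11.3, 11.0 and 11.6 CPM in naive and 41.1, 42.2 and 42.2 CPM in adapted cells (log2 1.89 ± 0.04), and CDS1 rose from 0.410 ± 0.0508 to 1.17 ± 0.172 CPM. The keratins, the most abundant members, fell: KRT8 from 1458 ± 52.7 to 756 ± 3.20 CPM, KRT18 from 1249.5 to 747 CPM and KRT19 from 647 ± 24.4 to 334 ± 2.16 CPM. Of 22 mesenchymal genes 6 rose and 5 fell, beside the same shares of all genes. Beside FN1, the receptor gene TGFBR2 went from 0.0721 to 9.44 CPM (log2 7.16 ± 0.21) and the ligand gene TGFB2 from 0.0659 to 3.78 CPM (log2 5.85 ± 0.20), both from close to the floor, and TGFBI, a TGF-beta-induced matrix protein gene, rose from 55.9 ± 0.260 to 114 ± 2.67 CPM. SNAI1, which encodes the transcription factor SNAIL, had 28.9, 30.1 and 29.3 CPM and 8.50, 8.34 and 9.08 CPM (log2 -1.77 ± 0.04), ZEB1 fell from 88.2 to 56.7 CPM, and VIM, vimentin, from 9445 ± 63.6 to 6005 ± 80.7 CPM. The VIM call was lost with library size alone (log2 -0.40) and upper-quartile factors (-0.55).

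In the matrix, 8 of 43 collagens and collagen-modifying enzymes rose and 7 fell, against 21.5% and 7.74% of all genes. The risers COL9A2 (from 0.224 ± 0.0352 to 1.46 ± 0.0860 CPM) and COL8A2 (from 0.109 ± 0.0257 to 0.683 ± 0.0899 CPM) were close to 1 CPM or below, and COL7A1, the anchoring fibril collagen, rose from 2.60 to 7.74 CPM, whereas COL3A1 fell from 31.7 ± 1.28 to 13.7 ± 0.107 CPM, COL13A1 from 74.7 ± 2.65 to 44.8 ± 0.932 CPM and the collagen chaperone SERPINH1 from 359.5 to 231 CPM. Of 25 integrins and laminins 9 rose and 2 fell, beside the same shares of all genes. LAMB3, a chain of laminin 332, had 1.73, 1.73 and 1.74 CPM in naive and 11.5, 11.7 and 12.7 CPM in adapted cells (log2 2.79 ± 0.07), its partner LAMA3 went from 0.617 to 1.04 CPM, and LAMA5 from 73.8 to 145 CPM and LAMB2 from 14.3 to 35.0 CPM, of other laminins, rose. ITGA5, the fibronectin receptor subunit, fell from 75.7 ± 0.745 to 47.8 ± 0.890 CPM and ITGA10 from 14.8 ± 0.231 to 8.04 ± 0.562 CPM. The ITGA5 call was lost with library size alone (log2 -0.41) and upper-quartile factors (-0.56). AGRN, the proteoglycan agrin, was among the called genes with the largest gain in CPM (from 154 ± 2.72 to 334 ± 2.99 CPM), and so was IGF2, an imprinted growth factor gene (from 45.4 ± 3.06 to 176 ± 8.61 CPM).

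Interferon-stimulated genes, which mark antiviral signaling, had 11 upregulated and 10 downregulated of 44, against 21.5% and 7.74% of all genes. The median of -0.03 was 0.22 with library size alone. IRF1, a transcription factor of the response, rose from 22.4 ± 0.935 to 46.2 ± 1.04 CPM and PARP9 from 14.9 ± 0.0758 to 28.5 ± 0.583 CPM, with SAMD9 from 1.02 to 3.74 CPM and MX1 from 1.35 to 2.96 CPM at lower levels. IFITM1 fell from 223 ± 3.37 to 121 ± 1.58 CPM and IFITM2 from 181 ± 3.83 to 86.6 ± 2.07 CPM, close paralogs that can share reads, and ISG15, a ubiquitin-like modifier, from 49.7 to 22.2 CPM and OASL from 29.3 to 11.0 CPM.

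Ribosomal protein genes shifted slightly downward. All 79 cytosolic ribosomal protein genes were lower at an adjusted p under 0.05, against 39.4% of all genes, and none passed 1.5-fold, with log2 fold changes of -0.49 to -0.08, a median of -0.29, and -0.04 with library size alone. Of 38 proteasome subunits 34 were lower by that test and 1, PSMB3 (from 172 ± 5.98 to 103 ± 0.888 CPM), passed the fold limit, and of 24 cytosolic aminoacyl-tRNA synthetase genes, 20 lower and 4 higher by the same test, EEF1E1 alone did (from 30.6 ± 0.400 to 19.7 ± 0.783 CPM). With library size alone the medians of both lists were -0.03 and -0.02, and with TMM -0.28 and -0.27. All 79 ribosomal protein genes, 33 of the 38 proteasome genes and 20 of the 24 synthetase genes averaged 64 CPM or more. The median over all genes of that class was -0.26. The PSMB3 and EEF1E1 calls were lost with library size alone (log2 -0.49 and -0.39). The called genes that lost most CPM were RNA18S5, ribosomal RNA left after oligo(dT) selection (from 12084 ± 1431 to 7601 ± 1142 CPM), VIM, HSP90AA1, FTL and HMGA1, an architectural chromatin protein gene (from 2631 ± 43.1 to 1312 ± 14.4 CPM). The RNA18S5 call was lost with upper-quartile factors (log2 -0.57), with library size alone (-0.42), in the fit of genes at 8 CPM or more (-0.54) and without naive replicate 3 (-0.58) or adapted replicate 3 (-0.55), and its sign turned with the nuclear RNA covariate (0.34).

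Of the called genes, the nuclear-retained RNAs MALAT1 and NEAT1 gained most CPM. MALAT1 had 183, 198 and 199 CPM in naive and 577, 609 and 742 CPM in adapted cells (log2 1.73 ± 0.30) and NEAT1 134, 155 and 128 CPM and 645, 458 and 648 CPM (log2 2.07 ± 0.27). Their replicates spread more than those of the protein-coding genes above. Of 13 such RNAs, 7 rose and none fell, against 21.5% and 7.74% of all genes. MIAT, from 1.63 ± 0.190 to 10.2 ± 2.34 CPM, and HCG18, from 14.5 ± 0.369 to 25.7 ± 0.547 CPM, were among the 7. In the fit with these RNAs as a covariate, which takes away their own variation, MALAT1 had a log2 fold change of -0.11 and NEAT1 of 0.38.

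**Figure D3:**
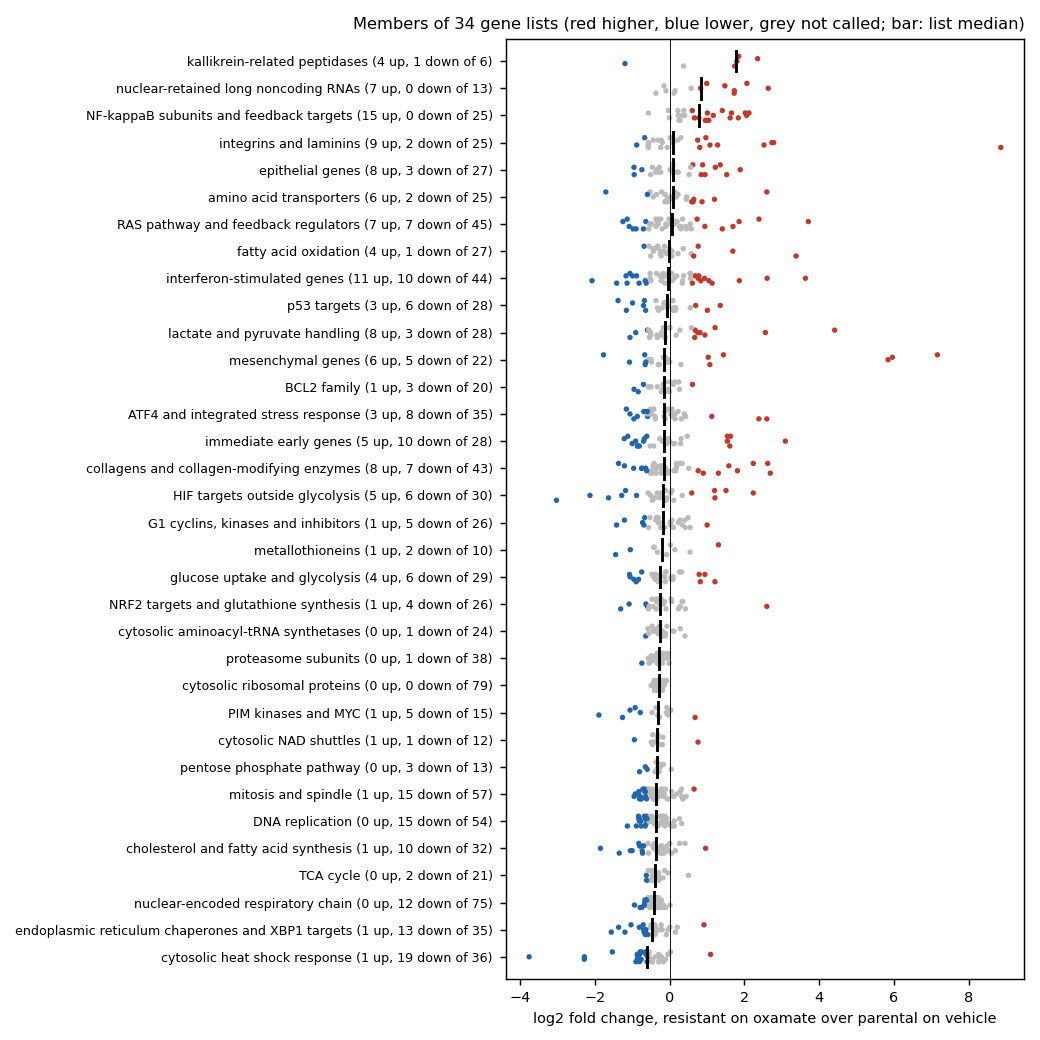
Log2 fold change of adapted over naive cells for each tested member of 34 gene lists, red if called higher, blue if called lower and grey if not called, with the list median as a black bar. Heat shock and ER chaperones lie lowest (medians -0.60 and -0.46) and kallikreins and NF-kappaB genes high (1.77 and 0.78).

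By step, the untreated lines differed in 3362 genes (23.1%), oxamate changed 192 genes in resistant cells (1.32%) and 1368 in parental cells (9.38%), all by the same call rule in edgeR. The oxamate step itself differed between the lines in 1097 genes (7.52%). The slope with level was present between the untreated lines, whose median log2 difference was 0.54 below 1 CPM and -0.22 at 64 CPM and over, and less so under oxamate in resistant cells (0.19 and -0.04). These contrasts share libraries with each other and with the whole shift, so they are given as values only. Of the named genes, the increases of FN1, DUSP6, BIRC3 and KLK6 lay between the untreated lines (5.78, 3.77, 1.84 and 2.34), with 0.18, -0.06, 0.00 and 0.02 under oxamate in resistant cells. Among the decreases, RGS5 had -2.35 and 0.18, HSPA5 -0.98 and -0.21, INSIG1 -1.45 and -0.40 and PIM1 -1.45 and -0.44 in the same order, so that both steps were downward in the last 3. ADM and ANKRD37 had the larger step under oxamate. SLC2A3 had -0.47 and -0.60, while oxamate in parental cells went with 0.59.

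**Figure D4:**
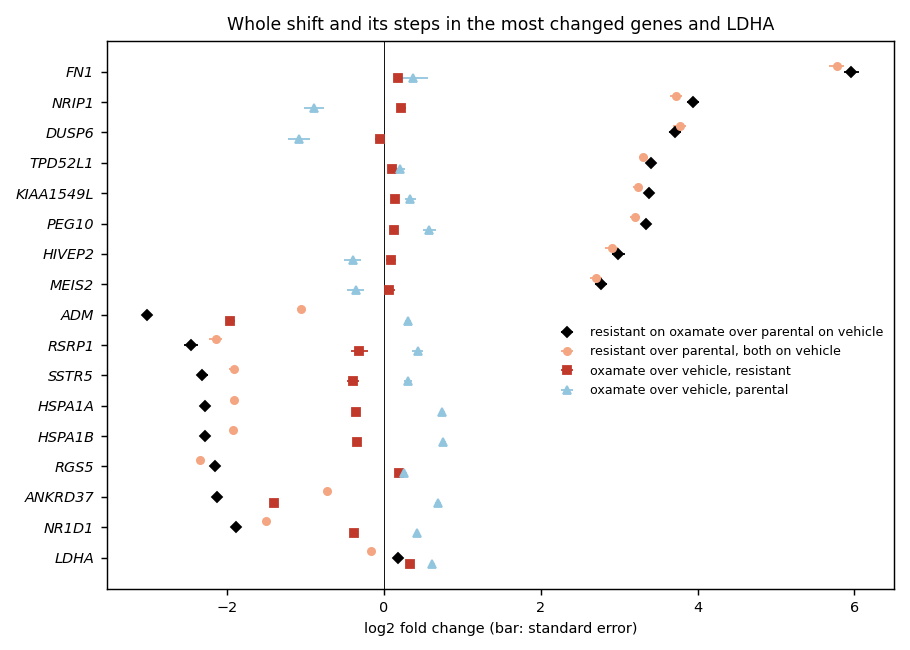
Log2 fold change with its standard error for the 8 largest increases and 8 largest decreases among genes averaging 8 CPM or more, and for LDHA: the whole shift (diamonds), the difference between the lines on vehicle (circles), oxamate in resistant cells (squares) and oxamate in parental cells (triangles). Circles lie beside the diamonds for the increases, and in ADM and ANKRD37 the squares (-1.96 and -1.41) lie further from 0 than the circles.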

How the data were processed

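RNA-seq of parental and oxamate-resistant MIAPaCa2 cells on vehicle or oxamate was measured in 12 libraries, 3 per group, grouped by their labels. The authors selected mRNA with oligo(dT) beads and deposited expected counts per gene symbol as RSEM estimates them, neither normalized nor whole, with no genome positions. The submitters' processing notes name hg38, Bowtie2 2.1.0 and RSEM 1.2.15, while the methods also describe STAR and featureCounts. RSEM divides reads shared by near-identical genes.

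Here the expected counts were rounded. In edgeR 4.0.16 (R 4.3.3), genes passing the filterByExpr defaults were scaled by TMM and fitted with glmQLFit and tested with glmQLFTest, with a mean for each of the 4 groups, which share 1 estimate of the spread, with Benjamini-Hochberg adjustment over 14582 genes. Every gene called and printed had an adjusted p under 0.05, and ± after a log2 fold change is its standard error, after a CPM mean the SD (n = 3). Totals of 46698729 to 114222169 counts set the floor of 3 counts. On simulated data for this contrast, with 14582 genes, 181 of 200 changed genes were recovered with 4 false calls. The 200 were changed equally often up and down. In the real contrast 29.2% of genes were called, 3135 higher and 1128 lower, so the simulation cannot speak to false calls under such an imbalance.

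The comparison, lists and rules were chosen with earlier results of these data known. Genes named were LDHA and LDHB, the 8 called genes with the largest increase and decrease at 8 CPM or more without overlap, genes with at most 3 counts in every library of 1 group, the called genes with the 5 largest gains and losses of CPM, and up to 2 per direction in each list by p. Other members were named after their values were seen, and some genes are not reported here. Promoters (250 bases before to 50 after the start) came from RefSeq, GRCh38.p14, and names and transcript classes from RefSeq for 14270 of the tested symbols. Alternatives were RLE, upper-quartile and library-size scaling, other filters and thresholds, unrounded counts, DESeq2 1.42.0, limma-voom (limma 3.58.1), the 6 libraries alone, a replicate block, a nuclear RNA covariate, thinned counts and each library left out. Chromatin accessibility and metabolites are not analysed here.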

Additional observations from a re-analysis of the deposited data

Results flagged for a closer look

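Of 17 genes, LDHA and those named for the size of their change, 9 responded to oxamate differently in the lines, by edgeR's test of that difference (adjusted p under 0.05 and over 1.5-fold), which 7.52% of all genes passed. The 17 were picked for contrasts that share libraries with this test. The log2 response in resistant minus that in parental cells was -2.27 ± 0.07 (standard error) for ADM, -2.09 ± 0.06 for ANKRD37, -1.11 ± 0.05 for HSPA1A and -1.11 ± 0.05 for HSPA1B, whose reads are shared. It was -0.80 ± 0.04 for NR1D1, -0.74 ± 0.13 for RSRP1 and -0.70 ± 0.09 for SSTR5. In these 7 genes oxamate went with lower levels in resistant and higher levels in parental cells. The difference was 1.12 ± 0.14 for NRIP1 and 1.03 ± 0.15 for DUSP6, where the parental response was -0.90 and -1.08 and the resistant one 0.22 and -0.06. For LDHA it was -0.28 ± 0.04, inside the fold limit.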

How the results depend on the processing

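Against 4263 calls (3135 higher and 1128 lower), the counts stayed within 1.5-fold under RLE size factors, no filter, a mean of at least 25 counts, unrounded counts, DESeq2, limma-voom, the 6 samples alone, thinned counts, an unadjusted p, and without the nuclear-RNA-rich libraries of the other groups (parental oxamate replicate 3 and resistant vehicle replicate 3), an alternative added after seeing the data. Leaving out each of the 6 libraries gave 4203 to 4345 calls, 3091 to 3193 higher and 1100 to 1166 lower.

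Lower calls came to 723 with upper-quartile factors and 414 with library size alone, and higher calls to 2034 with the nuclear RNA covariate. A mean of at least 8 CPM, with fewer genes tested, left 1596 calls (1142 higher and 454 lower), an adjusted p with no fold threshold 11710 (5967 and 5743), a 2-fold threshold 1997 (1739 and 258), and glmTreat at 1.5-fold 2205 higher and 739 lower genes. The replicate block gave 4254 calls, and replicate numbers did not pair the samples: deviations of same-numbered libraries correlated at 0.03, -0.05 and 0.05.

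Of 2467 values of 125 named genes under alternatives, 2386 kept direction and call, 79 lost the call and 2 changed sign, both with the covariate, MALAT1 at -0.11 and RNA18S5 at 0.34. Upper-quartile factors, library size alone and the 8 CPM filter each took the calls of VIM, FTL, PGD, CYCS, ACSL4, ITGA5 and EEF1E1, among others. Calls were also lost without naive replicate 1 for MPC2 (-0.57), STC1 (0.57) and SLC3A2 (-0.57), naive replicate 2 for BMF (0.57), naive replicate 3 for KLK13 (-0.96) and RNA18S5 (-0.58), adapted replicate 2 for SLC3A2 (-0.57), and adapted replicate 3 for MPC2 (-0.56), KLK13 (-0.99) and RNA18S5 (-0.55). List medians changed sign with library size alone for lactate and pyruvate handling (0.13), HIF targets (0.070), the integrated stress response (0.10), fatty acid oxidation (0.23), metallothioneins (0.047), G1 genes (0.067), p53 targets (0.18), immediate early genes (0.10), mesenchymal genes (0.11), collagens (0.10), the BCL2 family (0.10), interferon-stimulated genes (0.22) and immune markers (0.13). With upper-quartile factors they did for fatty acid oxidation (0.077), p53 targets (0.029) and interferon-stimulated genes (0.069). With the 8 CPM filter they did for p53 targets (0.053), epithelial genes (-0.15), interferon-stimulated genes (0.085) and fibroblast markers (-0.39), and with the covariate for fatty acid oxidation (0.011), interferon-stimulated genes (0.0019), fibroblast markers (-0.16) and endothelial markers (-0.28). The endothelial median, over 2 genes, was -0.083 without naive replicate 2 and -0.022 without adapted replicate 3. Apart from the settings' own construction, causes were not tested.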
